A study of Homo sapiens with 30 samples.

Results

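The 10 genes CSF1, CSF2, CSF3, IL6, IL1A, IL1B, IL11, IL24, LIF and TSLP, each coding for a secreted cytokine, were read by name from RNA-seq counts of 5637 cells, a human bladder carcinoma cell line known for secreting colony-stimulating factors. They are 10 of the 60612 genes in the count table of the RBPMS knockout experiment, where they were found by Ensembl identifier, and 10 of the 56303 genes in each of the tables of the ANKRD10 overexpression and ANKRD10 knockdown experiments. In both RBPMS knockout lines CSF3, CSF2, IL1A, IL1B and LIF were higher than in the controls, CSF3 by 6.88-fold in 1 line and 6.77-fold in the other. IL6 and IL11 were called higher in the KO2 line and CSF1 in the KO1 line. Overexpression of the ANKRD10-2 isoform came with 0.306 of the control level of CSF3, while knockdown of the same isoform came with lower IL6, IL1B, LIF and IL1A, and CSF3 was not called there.

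CSF1, CSF2 and CSF3 are the colony-stimulating factors of macrophages, of granulocytes and macrophages, and of granulocytes. IL1A and IL1B are the alarm cytokines of the interleukin-1 family, which signal through the same receptor and in turn raise transcription of many other cytokine genes through NF-kappaB and AP-1. IL6, IL11 and LIF bind different receptors that share the gp130 chain, coded by IL6ST, and signal through JAK kinases and STAT3. IL24 belongs to the IL-10 family and TSLP acts on a receptor that includes the IL-7 receptor chain. Messages of this kind are short-lived, since AU-rich elements and RNA-binding proteins such as ZFP36 and ZC3H12A speed their decay.

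Each of the 10 groups had 3 libraries. The knockout experiment held KO1 and KO2, whose genotype is given as RBPMS-KO, each beside its own wild-type group, WT1 and WT2. RBPMS codes for an RNA-binding protein that acts in splicing. The overexpression experiment held cells with Vector only, ANKRD10-1 overexpression or ANKRD10-2 overexpression. These are named after 2 splice isoforms of the ankyrin repeat gene ANKRD10. The study lists 2 siRNAs for each isoform, and the group names do not say which was used. The knockdown experiment held cells transfected with the control siRNA siNC, with siANKRD10-1 or with siANKRD10-2. All cells were grown in RPMI medium with fetal bovine serum, and no age of the cultures or time after transfection is given. The study's discussion describes the knockout populations as single-clone expansions from different guides, so each knockout group stands for 1 expanded population. The labels call the controls wild type, whereas the study's figures call them sgCtrl. The study's text places ANKRD10-1 overexpression and ANKRD10-2 knockdown in RBPMS-knockout cells, and ANKRD10-2 overexpression and ANKRD10-1 knockdown in 5637 cells. The labels name 5637 cells only, so the background of the overexpression and knockdown groups was not settled. It may differ between the isoforms, between the siRNAs and from the shared controls. The labels do not say whether the 3 libraries of a group came from separate cultures, so every p-value measures the spread between these libraries, which may be technical.

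Total counts ran from 44593108 to 69723937 per library in the knockout table, from 31736779 to 47493499 in the overexpression table and from 28511029 to 32784584 in the knockdown table. RBPMS was lower in both knockout lines, by a log2 change of -1.44 in KO1 and -1.09 in KO2, but did not reach 0, and it lay between 3.58 and 6.27 CPM (counts-per-million, the read count scaled by the total of the library) in all libraries of the other tables. In those tables RBPMS was not called in any comparison. Its log2 change was -0.19 (interval -0.47 to 0.10) with ANKRD10-1 overexpression and 0.03 (interval -0.25 to 0.31) with siANKRD10-2, each against its control. ANKRD10 over all its isoforms changed by 0.67 and 0.41 on the log2 scale with ANKRD10-1 and ANKRD10-2 overexpression. With siANKRD10-1 and siANKRD10-2 it changed by -0.24 and -0.25. The summed level of 12 epithelial markers lay between 826.2 and 1456 RPKM, which is CPM divided by the exon length in kilobases, although the urothelial genes UPK1B and UPK3A were under 1 RPKM in every library. The endothelial markers PECAM1, VWF and CDH5 and the leukocyte markers PTPRC, CD3E, CD14 and LYZ were under 1 RPKM throughout, the macrophage marker CD68 was above it in the overexpression and knockdown tables, and of 5 fibroblast markers COL1A1 was above it.

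Their positions in the 2 tables that give them equal those of the GENCODE v29 annotation of GRCh38. CSF3 lies on the plus strand of chromosome 17 at chr17:40015361-40017813, 1284 bases from the end of MED24 on the opposite strand and without overlap. IL1A (chr2:112773915-112784590) and IL1B (chr2:112829751-112836903) are neighbours on the minus strand, 45161 bases apart, and CSF2 (chr5:132073790-132076170) lies 10586 bases from IL3. IL6 (chr7:22725884-22732002) overlaps STEAP1B on the opposite strand over 1730 bases and the antisense gene AC073072.1 over 1737 bases, TSLP overlaps the antisense gene AC008572.1 over 1104 bases, and LIF (chr22:30240447-30246851) overlaps the antisense genes LIF-AS1 over 92 bases and AC004264.1 over 647 bases. The strand setting of the counting is not given, so reads of these pairs could not be told apart with certainty. STEAP1B was at most 0.343 CPM in any library, AC073072.1 was at 0 in every library of the overexpression and knockdown tables, and LIF-AS1 was at 0 in all 12 libraries of the knockout table. The other members are CSF1 (chr1:109910242-109930992), IL24 (chr1:206897443-206904139), IL11 (chr19:55364389-55370463, minus strand) and TSLP (chr5:111070062-111078024).

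The bases before the RefSeq transcription start (build GRCh38.p14) are shown for 5 of the 7 members with an entry in the promoter table: CSF2, IL1A and IL1B because they were called higher in both knockout lines, and IL6 and IL11 because their change differed most between the lines. IL24 and TSLP, at the edge of detection, are not shown, and CSF1, CSF3 and LIF have no entry. The window searched was the 250 bases before the start, and it is printed up to the first base that GENCODE v29 places in an exon of the gene. Capitals mark matches to the AP-1 motif TGANTCA, the C/EBP motif TTNNGNAA, the TATA motif TATAAA or the kappaB consensus, on either strand.
CSF2 (chr5:132073539-132073788, plus strand): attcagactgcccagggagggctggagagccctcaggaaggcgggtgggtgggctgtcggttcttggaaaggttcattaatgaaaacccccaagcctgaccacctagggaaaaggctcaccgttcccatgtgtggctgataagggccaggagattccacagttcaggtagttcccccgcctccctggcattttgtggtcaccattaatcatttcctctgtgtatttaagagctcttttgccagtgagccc
IL1A (chr2:112784591-112784743, minus strand): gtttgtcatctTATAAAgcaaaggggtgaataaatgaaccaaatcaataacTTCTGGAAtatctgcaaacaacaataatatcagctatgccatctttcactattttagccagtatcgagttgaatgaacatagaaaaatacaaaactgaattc
IL1B (chr2:112836904-112837029, minus strand): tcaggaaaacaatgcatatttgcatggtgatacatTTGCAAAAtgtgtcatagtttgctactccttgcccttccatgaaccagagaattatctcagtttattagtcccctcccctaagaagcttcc
IL6 (chr7:22726950-22727146, plus strand): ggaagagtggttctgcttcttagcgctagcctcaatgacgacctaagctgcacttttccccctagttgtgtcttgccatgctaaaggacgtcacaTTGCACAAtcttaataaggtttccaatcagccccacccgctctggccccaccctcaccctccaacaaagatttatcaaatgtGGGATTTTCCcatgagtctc
IL11 (chr19:55370464-55370713, minus strand): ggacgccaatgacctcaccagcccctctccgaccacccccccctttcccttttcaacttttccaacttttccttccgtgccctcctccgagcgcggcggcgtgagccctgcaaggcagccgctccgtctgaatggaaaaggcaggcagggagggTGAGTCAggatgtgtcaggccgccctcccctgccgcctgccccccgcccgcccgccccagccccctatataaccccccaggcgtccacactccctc

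Counted from the start, the kappaB match of IL6 lay at -73 to -64 and its C/EBP match at -155 to -148. The AP-1 match of IL11 lay at -96 to -90. IL1A held an AP-1 match at -12 to -6 and a C/EBP match at -32 to -25, both in the bases that are not printed. In its printed bases it held a TATA match at -239 to -234 and a C/EBP match at -199 to -192. IL1B held 3 C/EBP matches, of which the printed one lay at -215 to -208, and CSF2 held a match to none of the 4 motifs. No match overlapped another. Among all 35116 windows of this length in the promoter table, 6.57% held the AP-1 motif, 33.2% the C/EBP motif, 5.21% the kappaB consensus and 10.7% the TATA motif. A match describes these letters only.

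The question of the knockout experiment was which genes change when RBPMS is lost. Of the 10 members, 8 passed the filter on low counts in KO1 against WT1, and 6 of these were called higher (adjusted p under 0.05, edgeR's quasi-likelihood test) and 0 lower. Of all 17865 genes tested, 36.1% were called, 17.9% as higher. In KO2 against WT2, 9 members were tested, 8 were called higher and 0 lower, where 38.5% of 18267 genes were called and 19.3% were higher. Both counts in KO2 include IL24, which passed the filter on low counts only through the KO2 libraries where it was high, so its call supports nothing, and without it 7 of 8 members were called. The median log2 fold change of the tested members was 1.24 over 8 members in KO1 and 2.77 over 9 members, IL24 included, in KO2, beside -0.002 and -0.016 over all genes tested. The summed level of the epithelial markers was 1013 to 1077 RPKM in KO2 beside 1091 to 1155 RPKM in WT2 and overlapped between KO1 and WT1. That of the leukocyte markers was 0.778 to 1.05 RPKM in KO1 beside 0.460 to 0.707 RPKM in WT1 and 1.05 to 1.16 RPKM in KO2 beside 0.367 to 0.739 RPKM in WT2. That of the fibroblast markers was 3.34 to 3.98 RPKM in KO1 beside 4.94 to 5.36 RPKM in WT1, and it overlapped between KO2 and WT2. The endothelial markers were at 0.221 to 0.358 RPKM in KO1 beside 0.153 to 0.271 RPKM in WT1 and at 0.236 to 0.316 RPKM in KO2 beside 0.166 to 0.220 RPKM in WT2. The part of these shifts in the cytokine values was not tested. These are bulk libraries, in which more cells with a message and more message per cell cannot be told apart.

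CSF3, the granulocyte colony-stimulating factor, stood at 5.22, 5.02 and 5.23 CPM in the WT1 libraries and at 33.4, 27.5 and 45.4 CPM in the KO1 libraries. In the second pair it stood at 4.60, 5.52 and 6.43 CPM in WT2 and at 35.2, 33.6 and 43.3 CPM in KO2. Every knockout library was above every control library, and the ranges of KO1 and KO2 overlapped, as did those of WT1 and WT2. The log2 fold change was 2.79 in KO1 (SE 0.16, 95% confidence interval 2.43 to 3.15, adjusted p = 5.29e-07) and 2.77 in KO2 (SE 0.12, interval 2.50 to 3.04, adjusted p = 8.07e-09). The difference between these effects was 0.02 (SE 0.23, interval -0.47 to 0.49, adjusted p = 0.98). Leaving out any 1 library kept the log2 fold change between 2.56 and 2.94 in KO1 and between 2.65 and 2.90 in KO2.

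**Figure D1:**
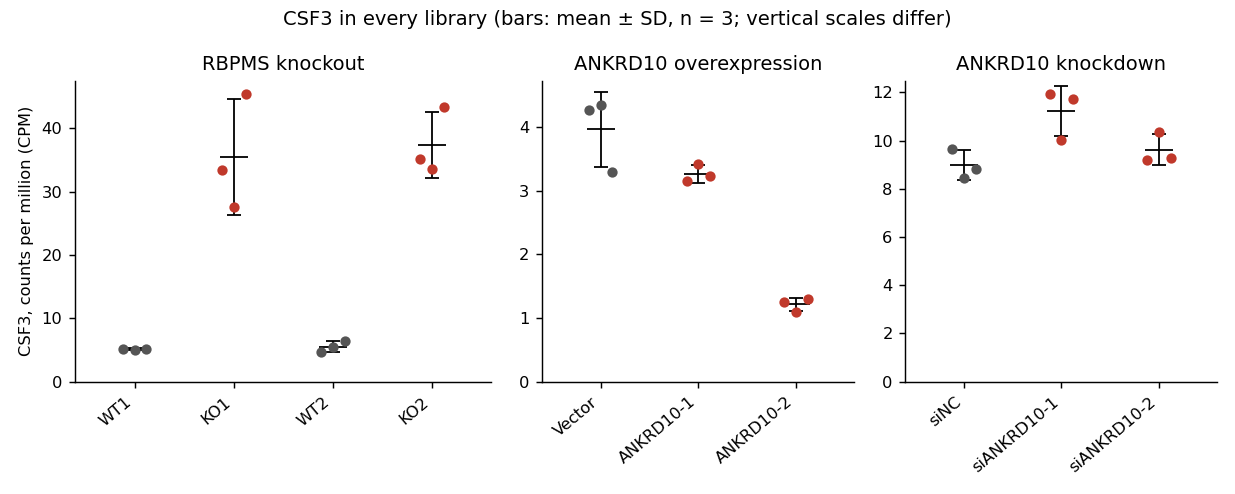
CSF3 in CPM in each library (points; grey, control groups; red, treated groups), with mean and SD as black bars, in panels for the 3 count tables with separate vertical scales from 0. The 6 knockout libraries sit between 27.5 and 45.4 CPM and the 6 wild-type libraries between 4.60 and 6.43 CPM, and the ANKRD10-2 overexpression libraries sit between 1.10 and 1.29 CPM, below the Vector libraries.

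The other colony-stimulating factors behaved differently from each other. CSF2 was low in the controls, at 0.978, 0.408 and 0.299 CPM in WT1 and 0.660, 0.377 and 0.670 CPM in WT2, and stood at 2.22, 2.18 and 3.04 CPM in KO1 and 3.73, 3.39 and 3.49 CPM in KO2. Both knockout groups were clear of their controls, with log2 fold changes of 2.16 (SE 0.41, adjusted p = 0.00189) and 2.63 (SE 0.26, adjusted p = 8.2e-06). The value in KO1 depended on WT1 replicate 1, the highest control, without which it was 2.82. CSF1 rose in KO1 from 21.95 ± 1.55 to 34.7 ± 2.7 CPM (SD, n = 3), a log2 change of 0.67 (SE 0.08, adjusted p = 9.82e-05). In KO2 it was 20.4 ± 1.6 CPM beside 18.7 ± 0.8 CPM in WT2, with a log2 change of 0.14 (interval -0.03 to 0.31, adjusted p = 0.198), and the effect in KO1 exceeded that in KO2 by 0.53 (SE 0.11, adjusted p = 0.00258).

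IL1A was the most abundant member per length in the knockout table. It stood at 50.8 RPKM in WT1 and 39.4 RPKM in WT2, ahead of LIF at 14.3 and 14.2 RPKM and IL1B at 9.40 and 6.48 RPKM, while CSF1, CSF3, IL11 and CSF2 followed at 4.05, 2.32, 1.02 and 0.713 RPKM in WT1. In KO2 the order was IL1A at 162.8 RPKM, IL1B at 54.0, LIF at 25.4 and CSF3 at 16.8 RPKM. By library, IL1A was 100.2, 111.8 and 111.4 CPM in WT1 and 234.4, 248.6 and 259.9 CPM in KO1, and 83.1, 81.3 and 86.5 CPM in WT2 and 321.8, 307.0 and 408.5 CPM in KO2. These groups did not overlap, and the log2 fold changes were 1.20 (SE 0.06, adjusted p = 1.71e-07) and 2.06 (SE 0.08, adjusted p = 2.77e-09). IL1B was 30.6, 26.0 and 30.7 CPM in WT1, 117.9, 114.3 and 133.0 CPM in KO1, 18.0, 20.5 and 21.7 CPM in WT2 and 153.2, 155.2 and 193.3 CPM in KO2. Its log2 fold changes were 2.07 (SE 0.08, adjusted p = 2.64e-08) and 3.07 (SE 0.09, adjusted p = 1.93e-10), larger than those of its neighbour IL1A in both lines.

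Both interleukin-1 genes rose more in KO2 than in KO1. The effect in KO1 minus that in KO2 was -0.86 (SE 0.11) for IL1A and -1.003 (SE 0.13) for IL1B on the log2 scale, with adjusted p = 3.73e-05 for each. They were also the members called between the control groups, where 1.23% of 18335 genes were called in WT2 against WT1. There IL1A was lower by -0.37 (adjusted p = 0.00432) and IL1B by -0.54 (adjusted p = 0.0112) on the log2 scale, and the other 6 tested members were not called. The IL1B call between the controls was lost without WT1 replicate 1 or 3 or WT2 replicate 1 or 2, at values from -0.56 to -0.47. Set against all 6 wild-type libraries, 7 of 8 tested members were called higher in KO1, IL11 among them, and 8 of 9 in KO2. The KO2 count again includes IL24, whose call supports nothing. The number of all genes called stayed within a factor of 1.5 of that against the own controls, which was 36.1% of tested genes in KO1 and 38.5% in KO2.

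The gp130 cytokines split. LIF, the most abundant of them, was 58.7, 59.1 and 52.0 CPM in WT1 and 137.3, 124.5 and 146.4 CPM in KO1, with a log2 change of 1.27 (SE 0.07, adjusted p = 4.52e-07). It was 58.8, 49.6 and 60.2 CPM in WT2 and 98.6, 88.7 and 115.5 CPM in KO2, with a log2 change of 0.85 (SE 0.09, adjusted p = 8.7e-06). Its effect was larger in KO1 by 0.41 (SE 0.13, adjusted p = 0.0285), a call that was lost without any 1 of WT1 replicate 3, KO1 replicate 3, WT2 replicate 1, WT2 replicate 3, KO2 replicate 1 and KO2 replicate 2, at values from 0.33 to 0.40.

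IL11, which acts on the same gp130 chain, had 3.05, 2.24 and 2.88 CPM in WT1, 4.59, 3.38 and 3.94 CPM in KO1, 2.33, 2.21 and 2.71 CPM in WT2 and 17.4, 17.1 and 15.6 CPM in KO2. All 3 KO2 libraries were thus above every other library of the table. The log2 fold change was 2.80 in KO2 (SE 0.12, adjusted p = 7.44e-09) and 0.55 in KO1 (SE 0.20, interval 0.11 to 0.99, adjusted p = 0.0532), which missed the threshold but passed it without KO1 replicate 2 (0.65), with all libraries of the table in 1 fit (0.55) and against all 6 wild-type libraries (0.64). The effects differed by -2.25 (SE 0.21, adjusted p = 1.22e-06).

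IL6 was rare, with 18 to 36 counts per library in the 6 controls. It was 0.350, 0.771 and 1.30 CPM in KO1 beside 0.575, 0.445 and 0.269 CPM in WT1, with overlapping groups and a log2 change of 0.92 (SE 0.54, interval -0.27 to 2.10, adjusted p = 0.217). In KO2 it was 3.39, 4.08 and 7.08 CPM beside 0.375, 0.646 and 0.385 CPM in WT2, with a log2 change of 3.39 (SE 0.33, adjusted p = 6.46e-06). The effects differed by -2.47 (SE 0.63, adjusted p = 0.00882). KO2 replicate 3 was the highest of its group for IL6, IL1A, IL1B, LIF, CSF3 and IL24, and without it the log2 fold change of IL6 was 3.02.

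IL24 and TSLP were at the edge of detection. IL24 had 0 counts in all 3 WT1 libraries, 0, 0 and 3 counts in KO1, and 2 counts over the 3 WT2 libraries, beside 11, 14 and 33 counts in KO2. The ratio of summed IL24 counts per total counts in KO2 to those in WT2 was 31.9 (exact 95% interval 8.45 to 270, counting error only). WT2 replicate 2 held both control counts. IL24 entered the fit only through its KO2 counts, so the fitted log2 change of 4.72, which was 7.36 without WT2 replicate 2, is given as a description with no test. IL24 did not pass the filter in KO1 against WT1, and the test of the difference between the lines had an interval from -10.2 to 7.35. TSLP had 1 count in all 30 libraries, in Vector replicate 1. A count of 0 allows up to 3 counts, that is 0.043 to 0.105 CPM depending on the library, so TSLP was not detected at this depth and did not enter any test.

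**Figure D2:**
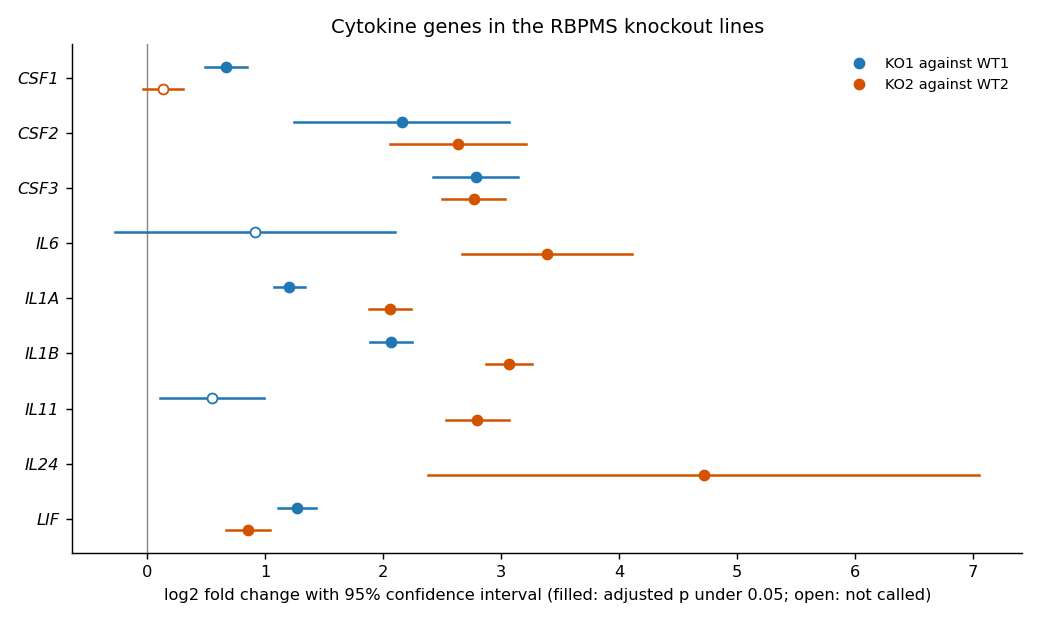
Log2 fold change of 9 cytokine genes in KO1 against WT1 (blue) and KO2 against WT2 (orange), with 95% confidence intervals (filled, adjusted p under 0.05; open, not called; IL24 was not tested in KO1 and entered the KO2 fit only through its KO2 counts). CSF3 is at 2.79 and 2.77, while IL6 and IL11 are at 0.92 and 0.55 in KO1 and at 3.39 and 2.80 in KO2.

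Tested directly, 6 of 9 members differed between the effects of KO1 and KO2, where 23.3% of 19189 genes did. CSF1 and LIF rose more in KO1, and IL6, IL11, IL1B and IL1A rose more in KO2. CSF3, CSF2 and IL24 were not called. Each line is 1 expanded population, so a difference between guides and a difference between populations cannot be told apart. RBPMS itself was lower in KO1 than in KO2 relative to the controls, by -0.36 (SE 0.09, adjusted p = 0.00672).

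The overexpression experiment asked what either ANKRD10 isoform changes beside Vector. With ANKRD10-1, 1 of 9 tested members was called, where 6.31% of 20457 genes were called. LIF fell from 89.2, 88.4 and 89.6 CPM in Vector to 74.5, 74.6 and 77.7 CPM, a log2 change of -0.24 (SE 0.05, adjusted p = 0.00361). CSF3 stood at 3.15, 3.43 and 3.24 CPM beside 4.27, 4.35 and 3.29 CPM in Vector, with a log2 change of -0.27 (interval -0.57 to 0.03, adjusted p = 0.291). CSF2 stood at 2.41 ± 0.06 beside 3.29 ± 0.21 CPM, with a log2 change of -0.46 (interval -0.75 to -0.16, adjusted p = 0.0653).

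With ANKRD10-2, 4 of 9 tested members were called, 3 lower and 1 higher. Of all 20177 genes tested, 19.9% were called, 9.25% as lower and 10.7% as higher. CSF3 was at 1.25, 1.10 and 1.29 CPM, from 34 to 53 counts per library, beside 156 to 185 counts in Vector. This was the largest change of a member in that comparison, a log2 change of -1.69 (SE 0.18, interval -2.07 to -1.31, adjusted p = 1.84e-05), and it stayed between -1.81 and -1.62 when any 1 library was left out. LIF fell to 54.9, 56.6 and 61.3 CPM, a log2 change of -0.62 (SE 0.05, adjusted p = 2.33e-06). IL11 went the other way, to 7.51, 6.89 and 6.90 CPM from 5.24, 4.71 and 4.84 CPM, a log2 change of 0.53 (SE 0.11, adjusted p = 0.00338).

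IL1B, which in this table was nearly as abundant per length as IL1A (72.3 and 90.7 RPKM in Vector), fell from 223.7 ± 5.9 to 200.4 ± 1.6 CPM with ANKRD10-2. Its log2 fold change was -0.15 (SE 0.04, adjusted p = 0.0261), a call that was lost without Vector replicate 1, Vector replicate 3, ANKRD10-2 replicate 2 or ANKRD10-2 replicate 3, at -0.14 to -0.15. IL1A was 187.0 ± 4.5 beside 192.6 ± 3.3 CPM and was not called (log2 fold change -0.04, adjusted p = 0.626). IL6, CSF1, CSF2 and IL24 were not called with either isoform.

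Compared with each other, 3 of 9 tested members differed between ANKRD10-2 and ANKRD10-1, where 7.26% of 20052 genes did. CSF3 was lower with ANKRD10-2 by -1.41 (SE 0.18, adjusted p = 3.75e-05) and LIF by -0.38 (SE 0.06, adjusted p = 0.000198) on the log2 scale. IL11 was higher by 0.47 (SE 0.12, adjusted p = 0.0178), which was lost without ANKRD10-1 replicate 1, ANKRD10-1 replicate 2 or ANKRD10-2 replicate 1, at values of 0.42. Total ANKRD10 was 237.8 ± 4.1 CPM with ANKRD10-1 and 196.5 ± 11.3 CPM with ANKRD10-2. The isoform, the level of overexpression and a possible difference in RBPMS background cannot be told apart here. RBPMS itself differed by 0.27 between the isoforms (interval -0.036 to 0.575, adjusted p = 0.306), and its part was not tested. Both comparisons with Vector rest on the same 3 Vector libraries. The summed epithelial markers were 913.0 to 954.2 RPKM with ANKRD10-1 and 922.1 to 1052 RPKM with ANKRD10-2 beside 826.2 to 875.1 RPKM in Vector. The summed leukocyte markers were 7.65 to 8.36 and 8.05 to 8.64 RPKM beside 10.2 to 11.1 RPKM in Vector, and the fibroblast markers were 5.67 to 5.93 RPKM with ANKRD10-1 beside 4.95 to 5.26 RPKM. The part of these shifts in the cytokine values was not tested.

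The knockdown experiment asked the reverse question. With siANKRD10-1, 2 of 9 tested members were called, where 10.6% of 18785 genes were called. LIF fell from 97.7, 102.6 and 97.6 CPM in siNC to 72.1, 70.4 and 68.4 CPM, a log2 change of -0.50 (SE 0.06, adjusted p = 1.31e-05). IL1B rose from 99.9, 100.9 and 113.2 CPM to 126.1, 119.5 and 123.4 CPM, a log2 change of 0.23 (SE 0.06, adjusted p = 0.0175). The IL1B call was lost without siNC replicate 1 (0.20), siNC replicate 2 (0.20) or siANKRD10-1 replicate 1 (0.22). The summed epithelial markers were 1158 to 1236 RPKM here beside 1371 to 1456 RPKM in siNC and the fibroblast markers 3.23 to 3.40 beside 2.93 to 3.09 RPKM, and their part in these values was not tested.

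CSF3 was at 11.9, 10.0 and 11.7 CPM with siANKRD10-1 beside 9.66, 8.44 and 8.82 CPM in siNC. The groups did not overlap, and its log2 change of 0.32 (SE 0.10, interval 0.11 to 0.54) had an adjusted p = 0.0505, at the edge of the threshold. It was past the threshold, at 0.32, with no filter on low counts, with the replicate number as a block or with all libraries of the table in 1 fit, and at 0.40 without siANKRD10-1 replicate 2.

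With siANKRD10-2, 4 of 9 tested members were called and all 4 were lower. Of all 18924 genes tested, 36.3% were called, 18.7% as lower. IL6 fell from 2.10, 1.83 and 1.00 CPM to 0.822, 0.834 and 0.459 CPM, a log2 change of -1.23 (SE 0.32, interval -1.89 to -0.57, adjusted p = 0.00349). IL1B fell to 59.9, 60.9 and 64.6 CPM, below every other library of the table, with a log2 change of -0.76 (SE 0.06, adjusted p = 1.93e-10). LIF fell to 63.9, 66.7 and 62.9 CPM (-0.62, SE 0.06, adjusted p = 1.39e-09) and IL1A from 97.2, 96.1 and 93.3 to 74.3, 74.5 and 78.3 CPM (-0.34, SE 0.05, adjusted p = 1.9e-05). CSF3 was at 9.21, 10.4 and 9.28 CPM, overlapping siNC, with a log2 change of 0.10 (interval -0.11 to 0.31, adjusted p = 0.491). The summed epithelial markers were 852.7 to 884.8 RPKM in this group beside 1371 to 1456 RPKM in siNC, the leukocyte markers 4.40 to 4.90 beside 5.73 to 6.61 RPKM and the fibroblast markers 3.36 to 3.65 beside 2.93 to 3.09 RPKM, and their part in these values was not tested.

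**Figure D3:**
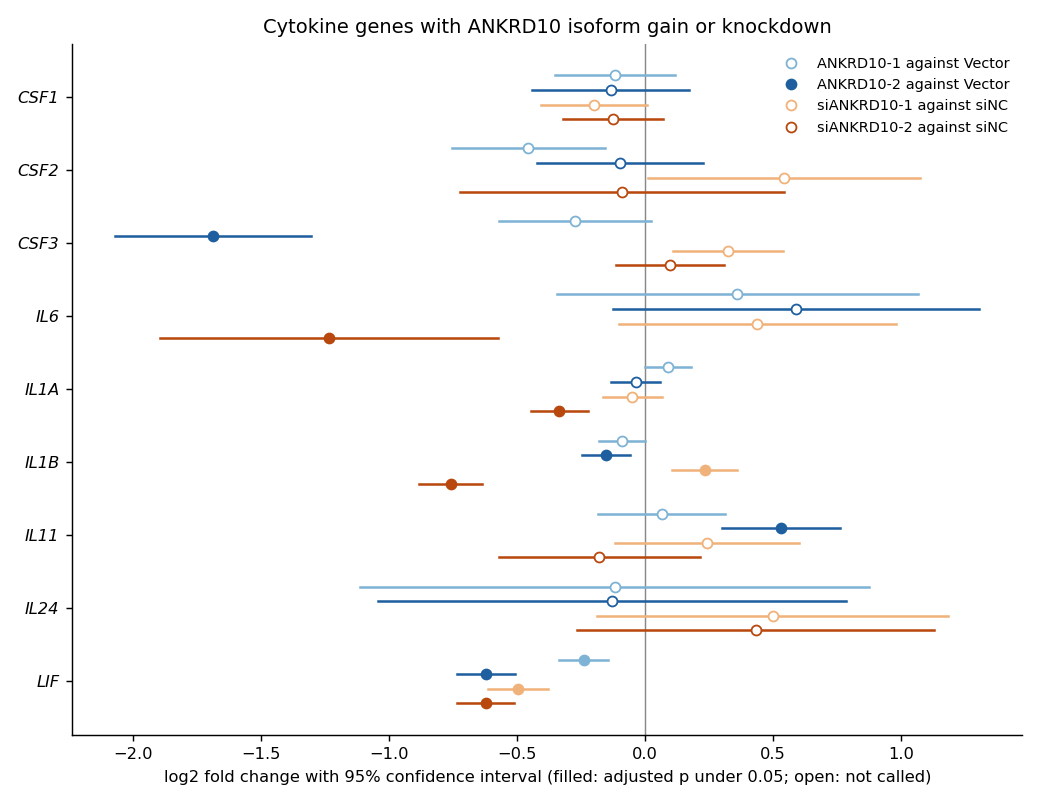
Log2 fold change of 9 cytokine genes with ANKRD10-1 or ANKRD10-2 overexpression against Vector (blues) and with siANKRD10-1 or siANKRD10-2 against siNC (oranges), with 95% confidence intervals (filled, adjusted p under 0.05; open, not called). CSF3 with ANKRD10-2 overexpression is at -1.69, IL6 with siANKRD10-2 is at -1.23, and the 4 values of LIF lie between -0.62 and -0.24.

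Between the siRNAs, 3 of 9 tested members differed and all 3 were lower with siANKRD10-2. Of all 18832 genes tested, 37.0% were called, 18.8% as lower. IL6 differed by -1.67 (SE 0.28, adjusted p = 6.14e-05), IL1B by -0.99 (SE 0.06, adjusted p = 7.64e-12) and IL1A by -0.28 (SE 0.06, adjusted p = 0.000265) on the log2 scale. CSF3 differed by -0.22 (interval -0.43 to -0.01, adjusted p = 0.0991), which passed the threshold without siANKRD10-1 replicate 2 (-0.30). CSF2 and IL11 passed it without siANKRD10-2 replicate 3, at -0.93 and -0.58. LIF was not called between the siRNAs (-0.12, interval -0.24 to -0.01, adjusted p = 0.0965), and total ANKRD10 was 47.6 ± 2.3 CPM with siANKRD10-1 and 47.4 ± 0.8 CPM with siANKRD10-2 (log2 fold change -0.002, adjusted p = 0.985). The siRNA comparisons with siNC share their 3 control libraries.

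**Figure D4:**
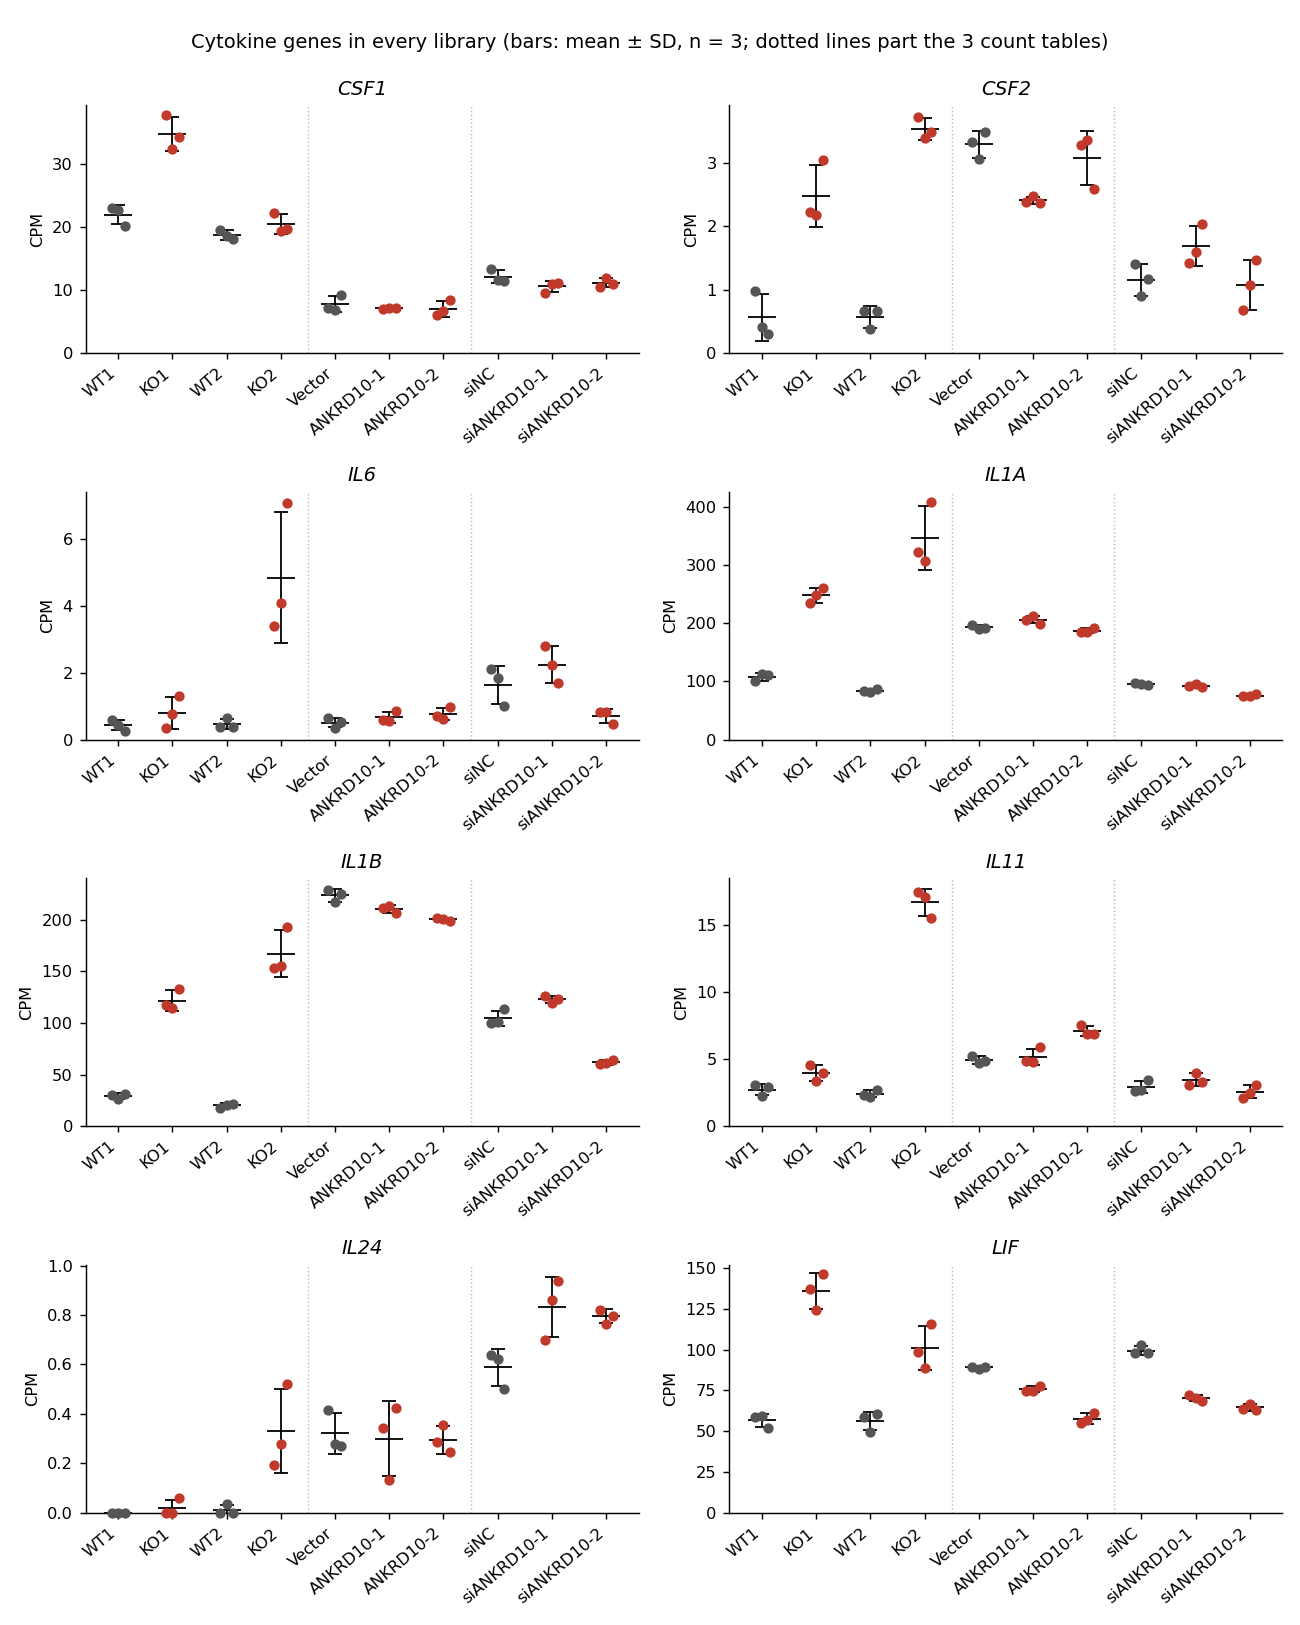
CPM of 8 cytokine genes in each library (points; grey, control groups; red, treated groups), with mean and SD as black bars; dotted lines part the 3 count tables, which were counted and scaled separately. IL11 and IL6 stand out in KO2 (15.6 to 17.4 and 3.39 to 7.08 CPM), IL1B is lowest in WT2 within the knockout table and in siANKRD10-2 within the knockdown table, and LIF is below its control group in the 4 ANKRD10 groups.

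Across experiments the direction of a member was not fixed. LIF was called in all 6 comparisons of a treated group with its control, higher in both knockout lines and lower with both overexpressed isoforms and both siRNAs. CSF3 was called in 3 of the 6, higher in KO1 and KO2 and lower with ANKRD10-2 overexpression, and IL1B in 5, higher in KO1, KO2 and siANKRD10-1 and lower with ANKRD10-2 overexpression and siANKRD10-2. CSF1 and IL24 were not called in any ANKRD10 comparison, and IL24 had 6 to 30 counts in each of those libraries. The summed IL24 counts gave a ratio to siNC of 1.41 (exact interval 0.994 to 2.03) with siANKRD10-1 and 1.38 (0.960 to 1.99) with siANKRD10-2, and to Vector of 0.886 (0.557 to 1.41) with ANKRD10-1 and 0.859 (0.524 to 1.398) with ANKRD10-2.

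Over the 30 libraries, with each table's mean subtracted from log2 CPM, IL1A and IL1B had the closest pattern of any pair of members, with Pearson's r of 0.98. CSF3 followed IL1B and IL1A (r of 0.87 with both) and LIF (0.86), and IL6 followed IL24 (0.84) and IL11 (0.83), while CSF1 was near 0 against IL6 (-0.11) and IL11 (-0.09). In the knockout experiment IL24 had at most 3 counts in any library outside KO2, so its r with IL6 mostly reflects that group. With ANKRD10-2 overexpression CSF3 changed by -1.69, LIF by -0.62, IL1B by -0.15 and IL1A by -0.04 on the log2 scale. With siANKRD10-2 they changed by 0.10, -0.62, -0.76 and -0.34. IL6 and IL11 changed by 0.59 and 0.53 in the former and by -1.23 and -0.18 in the latter. How far the r values rest on the knockout libraries was not tested. Of 11670 genes with at least 1 CPM on average in each table, those most like CSF3 were TLR4 (0.93), LAPTM5 (0.92), RP1L1 (0.92), RHBDF2 (0.91) and CLMP (0.90). Those most like IL6 were PRDM1 (0.89), IL20RB (0.88), ABTB2 (0.87), MXD1 (0.87) and NAMPT (0.87). These values describe 10 groups of 3 libraries that share tables and controls.

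Genes around the cytokines were read from lists written for this purpose, and values are given for the largest changes whose call held when any 1 library was left out. Every list count below stands beside the share of all tested genes called in either direction. That share was 36.1% in KO1, 38.5% in KO2, 6.31% with ANKRD10-1, 19.9% with ANKRD10-2, 10.6% with siANKRD10-1 and 36.3% with siANKRD10-2. Many of the counts lay near it, and no list was tested as a set. Of 15 receptor genes, 11 were tested in each comparison, and CSF3R, CSF2RA, CSF2RB and CRLF2, the receptor chains for CSF3, CSF2 and TSLP, were below 0.03 RPKM in every group. In KO1, 4 receptors were higher and 1 lower, led by LIFR, the LIF receptor chain, at 1.52 (SE 0.09) on the log2 scale. In KO2, 3 were higher and 6 lower, with IL7R, a chain of the TSLP and IL-7 receptors, at 2.25 (SE 0.09) and IL11RA, the IL-11 receptor chain, at -1.36 (SE 0.22). With ANKRD10-2 overexpression 2 were higher and 2 lower, IL1R1, the receptor of IL1A and IL1B, at -0.83 (SE 0.08), and with ANKRD10-1 none of the 11 was called. With siANKRD10-1 2 were higher and 2 lower, the gp130 gene IL6ST at -0.65 (SE 0.07), and with siANKRD10-2 4 were higher and 4 lower, IL1RAP, the accessory chain of the interleukin-1 receptor, at -1.13 (SE 0.09). IL7R was at 1.04 with siANKRD10-1 and 1.05 with siANKRD10-2.

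Among 11 genes of JAK, STAT and feedback, all were tested. SOCS3, which STAT3 induces and which dampens gp130 signalling, rose by 1.42 (SE 0.25) in KO2, and TYK2 fell by 0.76 (SE 0.07) in KO1. In KO1 4 were higher and 3 lower, and in KO2 4 were higher and 2 lower. With each siRNA 1 was higher and 3 were lower, STAT3 at -0.30 with siANKRD10-1 and JAK1 at -0.27 with siANKRD10-2.

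In the list of the interleukin-1 family and its processing, 11 or 12 of 14 genes were tested. CASP1, the protease that matures IL-1 beta, rose by 0.92 (SE 0.10) in KO1 and fell by 0.47 with siANKRD10-1 and by 0.69 with siANKRD10-2, and CASP4 rose by 0.61 in KO1. The antagonists IL36RN and IL1RN were lower with ANKRD10-2 overexpression by -1.27 (SE 0.19) and -1.01 (SE 0.22), and IL36RN with ANKRD10-1 by -1.08 (SE 0.19), all at 1 to 3 CPM. In all, 3 were higher and 2 lower in KO1, 4 and 2 in KO2, 0 and 2 with ANKRD10-1, 2 and 5 with ANKRD10-2, 0 and 1 with siANKRD10-1, and 0 and 5 with siANKRD10-2.

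Of 9 genes that act on cytokine mRNA turnover, all were tested. ZC3H12A, the endonuclease Regnase-1 that cleaves IL6 mRNA, rose by 0.46 (SE 0.06) in KO1 and 0.55 (SE 0.04) in KO2 and was lower by -0.38 with ANKRD10-2 overexpression, -0.29 with siANKRD10-1 and -0.50 with siANKRD10-2. ZFP36L1, which binds AU-rich elements, fell by 0.82 (SE 0.05) in KO1, and its relative ZFP36L2 fell by 0.98 (SE 0.05) in KO2 and by 1.56 (SE 0.09) with siANKRD10-2. In counts, 2 were higher and 3 lower in KO1, 4 and 2 in KO2, 0 and 0 with ANKRD10-1 (range -0.11 to 0.08), 2 and 1 with ANKRD10-2, 0 and 2 with siANKRD10-1, and 1 and 6 with siANKRD10-2.

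Of 14 transcription factors that act on cytokine genes, FOSL1, an AP-1 subunit, rose most in both knockout lines, from 11.5 ± 0.7 to 50.7 ± 7.0 CPM in KO1 (2.15, SE 0.10, adjusted p = 1.13e-07) and from 11.1 ± 1.1 to 40.8 ± 10.3 CPM in KO2 (1.88, SE 0.14, adjusted p = 6.88e-07). FOSL1 also rose with ANKRD10-1 (0.42) and ANKRD10-2 (0.89) overexpression and fell with siANKRD10-1 (-0.47). FOS and CEBPD rose in KO2, by 1.18 (SE 0.26) and 1.14 (SE 0.07). FOS was lower with ANKRD10-1 (-0.52) and ANKRD10-2 (-0.596) overexpression and with siANKRD10-1 (-0.655). ATF3 rose by 0.99 and 1.37 with the overexpressed isoforms and was lower in KO1 (-0.877). With siANKRD10-2 the NF-kappaB subunits RELB and RELA were higher, by 0.52 and 0.39. The part of these factors in the cytokine values was not tested. The counts called higher and lower were 3 and 5 in KO1, 7 and 3 in KO2, 2 and 1 with ANKRD10-1, 3 and 4 with ANKRD10-2, 1 and 5 with siANKRD10-1, and 3 and 5 with siANKRD10-2.

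Among 21 other cytokines and growth factors, 14 to 16 were tested, and they did not move as one. In KO2 TNFSF10, the death ligand TRAIL, fell from 114.8 ± 3.7 to 33.8 ± 1.1 CPM (-1.75, SE 0.05, adjusted p = 1.29e-10) while IL23A, a subunit of IL-23, rose by 1.70 (SE 0.23). IL23A fell by 0.73 with siANKRD10-1 and rose by 1.13 (SE 0.09) with siANKRD10-2, to 42.3 ± 4.5 from 19.3 ± 2.6 CPM. TNFSF15 was lower in KO1 (-0.50) and with ANKRD10-1 (-0.59) and ANKRD10-2 (-1.17), and higher with siANKRD10-2 (0.57). In KO1 4 were higher and 4 lower, in KO2 6 and 2, with ANKRD10-1 0 and 2, with ANKRD10-2 2 and 2, with siANKRD10-1 2 and 1, and with siANKRD10-2 8 and 3. The median log2 fold change of the list was -0.003 in KO1 and 0.17 in KO2, beside 1.24 for the 8 members tested in KO1 and 2.77 for the 9 tested in KO2, IL24 included.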

How the data were processed

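RNA-seq counts from 30 libraries of 5637 cells were analysed. The authors report poly(A) capture, a stranded library kit, trimming with Cutadapt and Trimmomatic, alignment with HISAT2 and expression with StringTie; the submitters' processing notes name Trimmomatic 0.36, featureCounts, Subread 1.5.1 and GRCh38. The deposited tables hold raw read counts per gene, not normalized. The tables were counted separately, by Ensembl identifier for the knockouts and by symbol for the others, so no test crosses tables. The annotation used for counting is not given in the sources used here.

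With R 4.3.3 and edgeR 4.0.16, genes were kept by filterByExpr (minimum count 10, total 15), scaled by TMM and tested by quasi-likelihood with p-values adjusted by Benjamini-Hochberg across every tested gene (threshold 0.05). Only the libraries of the groups compared entered a fit, and the difference between knockouts used all 12. The prior count behind log2 fold changes was 0.125, folds are ratios of mean CPM, and RPKM uses the exon length in the tables. For 3 libraries against 3, the smallest p of an exact permutation test is 0.1. Pairs of replicates differed by 3.92 to 18.1 chi-square units per gene, so each was counted as a library of its own. The fits were also run on simulated data with the same relative spread for every gene. Real genes differ in spread, so no conclusion is drawn from that run.

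The members and lists were chosen with earlier results of these data known. Named genes are the members, RBPMS, ANKRD10, up to 3 called genes a list and comparison with the largest change at a mean of 50 or more counts, and the 5 genes most like CSF3 and IL6; of list genes, the text gives those whose call held in every leave-one-out fit. Alternatives were DESeq2 1.42.0, RLE size factors, no filter, each library left out, the replicate number as a block, 1 fit per table, all 6 wild-type libraries as controls and a call rule that also asks for a log2 fold change of 1 or more in size. For the lists, list genes, RBPMS and ANKRD10, the alternatives were chosen after seeing the data, and for the list counts they were DESeq2 and leaving out each library. Results of some list genes are not reported here.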

Additional observations from a re-analysis of the deposited data

Results flagged for a closer look

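The effect of RBPMS loss differed between the knockout lines, by the test of the difference itself, for 6 of 9 tested members. On the log2 scale, the effect in KO1 minus that in KO2 was -2.47 for IL6, -2.25 for IL11, -1.003 for IL1B and -0.86 for IL1A, which rose more in KO2, and 0.53 for CSF1 and 0.41 for LIF, which rose more in KO1. The same test gave -0.36 for RBPMS and -0.42 for ANKRD10, both lower in KO1. Groups of 3 libraries are too small for a test of single outlying libraries.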

How the results depend on the processing

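Of 88 tests of a member, 39 were called. Among them is IL24 in KO2 against WT2, whose call supports nothing. The 473 values and the counts for KO2 given below include it. Under the alternatives other than the fold rule, no called value changed direction in 473 values and 20 lost the call. DESeq2 and RLE factors left all 88 tests on the same side of the threshold. A rule asking also for a log2 fold change of 1 or more in size left 1149 genes in KO1, 1095 in KO2, 1059 in their difference, 16 in WT2 against WT1, 80 with ANKRD10-1, 241 with ANKRD10-2, 72 between the isoforms, 69 with siANKRD10-1, 500 with siANKRD10-2 and 514 between the siRNAs; the members called fell from 6 to 5 in KO1 (without CSF1), from 8 to 7 in KO2 (without LIF), from 6 to 3 in the knockout difference, from 2 to 0 between the controls, from 1 to 0 with ANKRD10-1, from 4 to 1 with ANKRD10-2, from 3 to 1 between the isoforms, from 2 to 0 with siANKRD10-1, from 4 to 1 with siANKRD10-2 and from 3 to 1 between the siRNAs. In WT2 against WT1, 226 genes were called, 571 by DESeq2 and 88 with no filter. DESeq2 called 3 in place of 5 genes of the interleukin-1 list and 7 in place of 11 other cytokines with siANKRD10-2. The cause was not tested.

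The labels link same-numbered libraries only by their number, and whether they were prepared together was not settled. The correlations of their deviations ran from -0.08 to 0.17 and no comparison had every pair over 0.1. They were 0.065 to 0.149 in KO2 against WT2 and 0.061 to 0.168 in ANKRD10-2 against Vector, so low values cannot show that no pairing exists. With the replicate number as a block, the members called were 6, 8, 6, 2, 1, 4, 3, 3, 4 and 3 over the comparisons in the order just given; the genes called were 6082, 7084, 4476, 165, 1309, 4766, 1414, 2778, 6936 and 6351. The block turned 2 values near 0, CSF3 between the knockouts (-0.008 from 0.015) and IL24 between the isoforms (0.02 from -0.013), and added CSF3 with siANKRD10-1.

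Leaving out each library in turn gave ranges of genes called of 71 to 133 between the controls, 700 to 1549 with ANKRD10-1, 2617 to 3533 with ANKRD10-2, 694 to 1396 between the isoforms and 949 to 2430 with siANKRD10-1. Members called ranged from 1 to 2 between the controls, 1 to 3 with siANKRD10-1 and 3 to 5 between the siRNAs. List counts ranged, in KO1, from 3 to 6 (interleukin-1) and 5 to 8 (other cytokines); with ANKRD10-1, 1 to 3 (interleukin-1) and 1 to 2 (other cytokines); with ANKRD10-2, 2 to 4 (receptors), 1 to 3 (turnover), 4 to 7 (transcription factors) and 2 to 3 (other cytokines); with siANKRD10-1, 1 to 3 (JAK and STAT), 1 to 3 (turnover) and 2 to 5 (transcription factors); with siANKRD10-2, 2 to 4 (JAK and STAT), 3 to 5 (interleukin-1), 5 to 8 (transcription factors) and 7 to 10 (other cytokines).

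The following uncalled log2 values spanned 0 when single libraries were left out. Between the knockouts, CSF2 ran from -0.80 to 0.18 and CSF3 from -0.21 to 0.17. Between the controls, CSF2 ran from -0.29 to 0.69, CSF3 from -0.028 to 0.21, IL6 from -0.18 to 0.39 and LIF from -0.073 to 0.065. With ANKRD10-1, CSF1 ran from -0.19 to 0.029, IL11 from -0.034 to 0.12 and IL24 from -0.43 to 0.25. With ANKRD10-2, CSF1 ran from -0.29 to 0.014, CSF2 from -0.15 to 0.022, IL24 from -0.26 to 0.10 and RBPMS from -0.044 to 0.17. Between the isoforms, CSF1 ran from -0.18 to 0.091 and IL24 from -0.38 to 0.30. RBPMS ran from -0.18 to 0.022 with siANKRD10-1 and from -0.04 to 0.16 with siANKRD10-2, where CSF2 ran from -0.39 to 0.15. Between the siRNAs, IL24 ran from -0.18 to 0.03 and ANKRD10 from -0.031 to 0.03. ANKRD10 with siANKRD10-1 lost its call without siNC replicate 1 (-0.24) or siANKRD10-1 replicate 3 (-0.22). Depth limits IL24, TSLP, IL6 and CSF2 most.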
